A study of Mus musculus with 6 samples.

Results

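The insulin-like growth factor (IGF) ligands, their receptors and their binding proteins were examined in bulk RNA sequencing of mouse BMSCs, the name the study gives to adherent cells grown from bone marrow. The group held the 10 genes Igf1, Igf2, Igf1r, Igf2r, Igfbp2, Igfbp3, Igfbp4, Igfbp5, Igfbp6 and Igfbp7, taken by symbol from the 25722 genes in the count tables. All 10 were listed, and 9 of them passed the filter on low counts, with Igfbp6 left out. Cultures of wild-type C57BL/6 BMSCs received either all-trans retinoic acid (RA, 3 libraries) or its solvent DMSO (3 libraries), with no cytokine named for them. Both groups shared a low-glucose medium with 20% fetal bovine serum, 5% O2 and 10 µM ROCK inhibitor. The sample labels give 1 µM RA for 48 h, whereas the study's methods give 100 nM for 24 h for the sequenced RNA. The section on RNA isolation in those methods gives 100 nM for a shorter time. The values below hold for whichever was used. The same labels mention 2 biological replicates, which is fewer than the 3 libraries found in each group, and nothing ties a library to its own animal, so the p-values measure the spread between these libraries, which may be technical.

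IGF-I and IGF-II signal through the receptor tyrosine kinase encoded by Igf1r, which acts through insulin receptor substrates on the PI3K, AKT and mTOR chain. The product of Igf2r, also the mannose 6-phosphate receptor, takes IGF-II up for degradation and carries lysosomal enzymes. The secreted binding proteins hold IGFs away from Igf1r or deliver them to it, and proteases such as PAPP-A and HTRA1 free the ligand by cutting them. In bone marrow, stromal cells and macrophages both make Igf1, and stromal cells secrete several binding proteins. RA acts through nuclear receptors that bind pairs of AGGTCA-like motifs in DNA.

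The libraries held between 14737636 and 18511905 counts, so that 3 counts, taken as the detection floor, equalled 0.160 to 0.210 CPM (counts scaled to a common library size, here with TMM factors). The treatment was visible in Cyp26b1, which encodes an enzyme that breaks RA down and which rose from 5.20 ± 0.67 to 107 ± 18.4 CPM (SD, n = 3, edgeR adjusted p = 0.00207). In a principal component analysis over the 1000 genes that varied most, the leading component (57.2% of the variance) separated DMSO 2, RA 1 and RA 2 (library set 1) from DMSO 1, DMSO 3 and RA 3 (library set 2). No label gives a batch, so the sets come from the data alone, and values within each set are given beside the pooled fold changes of the members. The 14 macrophage markers, all tested, summed to between 20900 and 23600 CPM, with Adgre1 at 4460 to 6380, while the 12 mesenchymal markers, 10 of them tested, summed to between 1490 and 3880 CPM, with Col1a1 at 414 to 1650, Cxcl12 at 368 to 578 and Pdgfrb at 60.3 to 140 but Thy1 at 0 to 0.490 and Nt5e at 0.140 to 1.12. The stromal name of the cells is therefore kept only as the label's, since markers of both macrophages and stromal cells were present in every library. In RNA of whole cultures, fewer cells of a type and less RNA per cell cannot be told apart.

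Igfbp3 was the member that differed most between the groups, with about 4 times as much mRNA in RA-treated as in DMSO-treated BMSCs and no overlap between them, while Igfbp2 was lower in every RA library. The ligand Igf1, both receptors and the 3 most abundant binding proteins Igfbp4, Igfbp5 and Igfbp7 had overlapping groups. In edgeR's quasi-likelihood test over all 13842 genes, 0 of the 9 tested members passed an adjusted p under 0.05 with a change of at least 1.5-fold, against 6 genes or 0.0433% of all genes tested. At an unadjusted p under 0.05 there were 2 members, Igfbp3 higher and Igfbp2 lower, against 5.25% of all genes. DESeq2 called 1 member, Igfbp3, as higher, where it called 0.983% of all genes and 0.709% as higher. The likelihood ratio test of edgeR also called Igfbp3 alone, where it called 0.968% of all genes and 0.672% as higher. Fold changes of 3 tested members were positive and of 6 negative (4 and 5 with scaling by library total, under which Igfbp7 turned positive), with a median log2 fold change of -0.07 beside -0.02 over all genes tested.

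**Figure D1:**
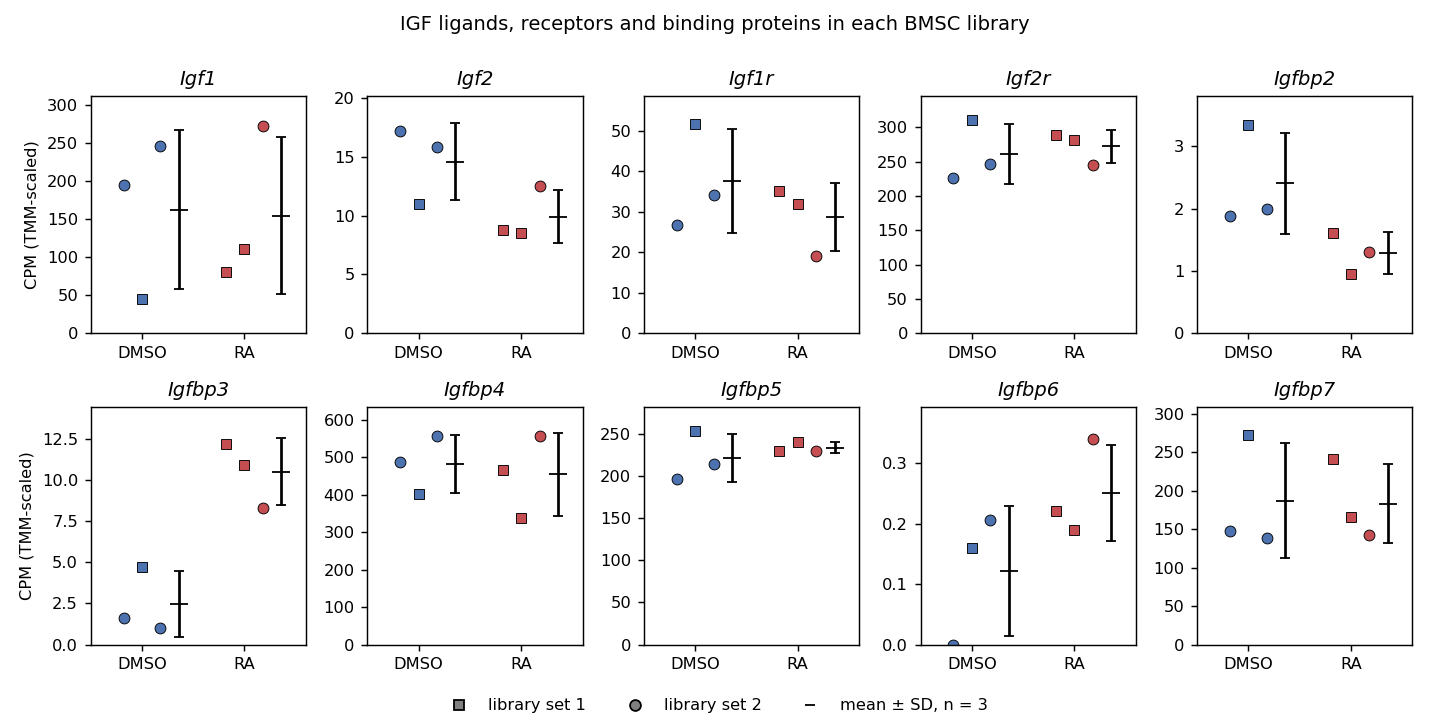
TMM-scaled CPM (vertical axes, each from 0) of the 10 genes in the 3 DMSO and 3 RA libraries, with the mean ± SD beside the points, and squares for library set 1 and circles for set 2. Igfbp3 lies between 8.26 and 12.2 CPM after RA and at most at 4.73 CPM in DMSO, whereas Igf1 follows the library sets, with every circle above every square.

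Igf1 (chromosome 10 of mm10, 87858265 to 87937042, plus strand) encodes IGF-I, the main ligand of Igf1r. It stood at 195, 45.1 and 246 CPM in DMSO 1, 2 and 3 and at 80.0, 110 and 272 CPM in RA 1, 2 and 3. The 3 libraries of set 2 were all higher than the 3 of set 1 (means of 237 and 78.4 CPM), whatever the treatment. The pooled means were 162 ± 104 and 154 ± 103 CPM (SD, n = 3), with a log2 fold change of -0.07 (95% interval -1.70 to 1.55, edgeR adjusted p = 0.982). Within the sets the sign was the other way, with RA above DMSO by 1.06 on the log2 scale in set 1 and by 0.31 in set 2. When the library set entered the fit as a covariate, Igf1 had a log2 fold change of 0.68 (95% interval 0.18 to 1.17) and did not pass the test (edgeR adjusted p = 0.212). That value was 0.32 without DMSO 2, with a 95% interval of -0.20 to 0.83, and 1.07 without RA 3, and without RA 2 it was 0.51 (edgeR adjusted p = 0.0432), short of 1.5-fold. With the set in the fit, RA and DMSO are compared in set 2 alone without DMSO 2 and in set 1 alone without RA 3. None of the 6 fits with 1 library left out called Igf1. Of the 14 macrophage markers, 10 were likewise higher in every library of set 2 than in any of set 1 (Mrc1 at 331 to 449 against 105 to 191 CPM) and 2 were lower (Lyz2 at 5540 to 6630 against 8720 to 9780 CPM and Fcgr1 at 72.9 to 87.5 against 117 to 137 CPM). The summed list covered 21400 to 23600 CPM in set 2 and 20900 to 22100 CPM in set 1. The part of these cells in the Igf1 values was not tested.

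Igf2 (chromosome 7, 142650766 to 142666816, minus strand) encodes IGF-II, the imprinted ligand that Igf2r clears. Its levels were 17.2, 11 and 15.8 CPM in DMSO and 8.78, 8.50 and 12.5 CPM after RA. RA 3 lay above DMSO 2, so the groups overlapped, although RA libraries were lower than the DMSO libraries of their own set. The mean went from 14.6 ± 3.26 to 9.92 ± 2.22 CPM (SD, n = 3), with a log2 fold change of -0.56 (SE 0.25, 95% interval -1.15 to 0.03, edgeR adjusted p = 0.795). Within the sets it was -0.34 and -0.40, and -0.37 in the fit with the set (edgeR adjusted p = 0.241). Per length, Igf1 made up 70.4% of the summed ligand mRNA in DMSO 2 and between 84.0% and 92.6% in the other libraries, so Igf1 was the main ligand transcript throughout. Genes that overlap the ligands had few counts, at 0 to 5 for Igf2os and Gm49394 and 1 to 7 for Igf1os, and no source says whether the counting used strand.

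Igf1r (chromosome 7, 67952827 to 68233668, plus strand), the signalling receptor, stood at 26.7, 51.7 and 34.2 CPM in DMSO and at 35.1, 32 and 19.1 CPM after RA. DMSO 2 was the highest and RA 3 the lowest library, and RA 1 lay above DMSO 1 and DMSO 3, so the groups overlapped. The log2 fold change was -0.39 (SE 0.32, 95% interval -1.14 to 0.37, edgeR adjusted p = 0.803), and it was -0.07 without DMSO 2 and -0.17 without RA 3. Within both library sets the RA libraries lay lower, by log2 values of -0.62 and -0.66, a sameness of sign that 65.9% of all genes tested had. In the fit with the set as a covariate it was -0.65 (SE 0.13, 95% interval -0.94 to -0.35), and its edgeR adjusted p of 0.0578 missed the threshold, and of the 6 such fits with 1 library left out it passed without RA 2 (-0.62, edgeR adjusted p = 0.0118) and in none of the other 5 (edgeR adjusted p from 0.0916 to 0.564). The mesenchymal list also summed highest in DMSO 2 (3880 CPM) and lowest in RA 3 (1490 CPM), but of its 12 genes 3 had that order (Col1a1, Col1a2 and Prrx1), and Col1a1 and Col1a2 made up most of the sum. Their part in the Igf1r values was not tested.

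Igf2r (chromosome 17, 12682406 to 12769664, minus strand) was the steadier receptor, at 226, 310 and 247 CPM in DMSO and at 289, 282 and 245 CPM after RA. Its groups overlapped, and the log2 fold change was 0.06 (95% interval -0.31 to 0.43, edgeR adjusted p = 0.93), which turned to -0.04 with the set as a covariate and was -0.12 within set 1 and 0.05 within set 2. The antisense transcript Airn, which silences the paternal Igf2r allele in cis, was counted at 47 to 52 in every library. Per kilobase of exon, Igf2r mRNA stood at 24.2 to 33.4 CPM and Igf1r mRNA at 1.14 to 3.08 CPM, so the clearance receptor was the more abundant receptor transcript in all 6 libraries.

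**Figure D2:**
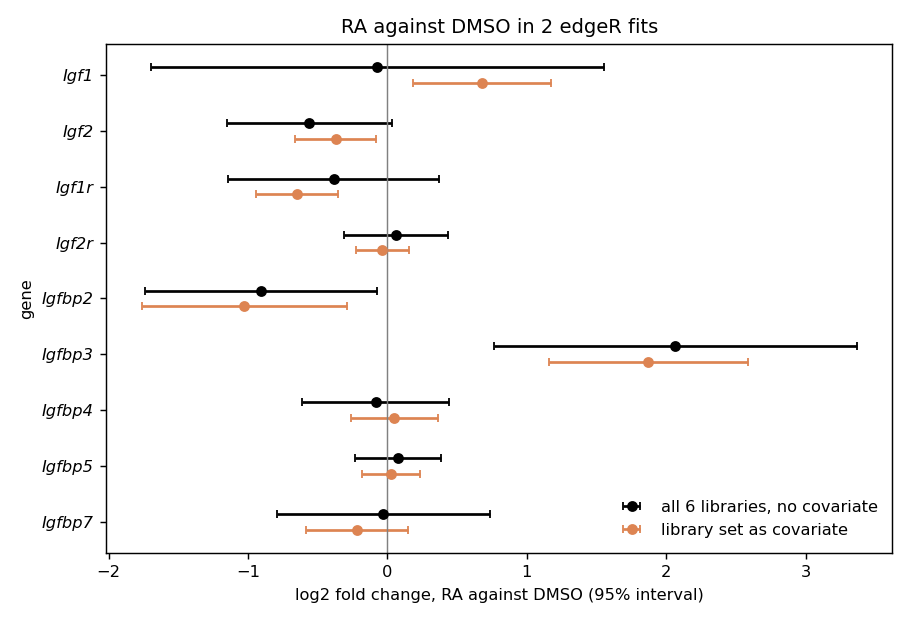
Log2 fold change of RA against DMSO (horizontal axis) with its 95% interval for the 9 tested members, from the edgeR fit without a covariate (black) and the fit that included the library set (orange). The interval of Igfbp3 lies above 0 in both fits (0.76 to 3.37 and 1.16 to 2.59), and that of Igf1 spans 0 in the first and runs from 0.18 to 1.17 in the second.

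Igfbp3 (chromosome 11, 7206086 to 7213923, minus strand) encodes the main carrier of IGFs in blood, which also holds IGFs at the cell surface and is known as a retinoid-responsive gene in several cell types. It had 23, 89 and 15 counts in DMSO and 220, 172 and 121 counts after RA, which gave 1.61, 4.73 and 1.03 CPM against 12.2, 10.9 and 8.26 CPM. Every RA library lay above every DMSO library, and DMSO 2, the DMSO library of set 1, was the highest of its group. Groups that did not overlap, with RA higher, were seen for 5.71% of all genes tested. The mean went from 2.46 ± 1.99 to 10.5 ± 2.02 CPM (SD, n = 3), a 4.19-fold difference (95% interval 1.70 to 10.3) with a log2 fold change of 2.07 (SE 0.55). After adjustment over all genes this missed the threshold (edgeR adjusted p = 0.583).

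The difference in Igfbp3 was seen in both library sets, with log2 values of 1.26 in set 1 and 2.56 in set 2. In the fit with the set it passed the test, at a log2 fold change of 1.87 (SE 0.31, edgeR adjusted p = 0.0309), where 1.54% of all genes were called and 0.744% were called as higher. It also passed with DESeq2 (log2 fold change 2.08, adjusted p = 0.0238) and with edgeR's likelihood ratio test (2.07, adjusted p = 0.0376). Without DMSO 2, in the fit with no covariate, the log2 fold change was 2.99 (edgeR adjusted p = 0.095). In the fit with the set, the call was lost without DMSO 1 (log2 fold change 1.84, edgeR adjusted p = 0.201). It was also lost without DMSO 3 (1.67, edgeR adjusted p = 0.114) or RA 3 (1.29, edgeR adjusted p = 0.121). The call was kept without DMSO 2, RA 1 or RA 2. Without DMSO 2 that fit compares RA and DMSO in set 2 alone, and without RA 3 in set 1 alone. The 8 cell division genes summed to 605 CPM in DMSO 2 and to 1020 and 1160 CPM in RA 1 and RA 2 of set 1, and to 194 and 210 CPM in DMSO 1 and DMSO 3 and 183 CPM in RA 3 of set 2. The sum was thus higher with Igfbp3 after RA in set 1 and not in set 2, and its part in the Igfbp3 values was not tested.

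Igfbp2 (chromosome 1, 72824503 to 72852474, plus strand) encodes a binding protein with a slight preference for IGF-II that also binds integrins. Its counts were low, at 27, 63 and 29 in DMSO and 29, 15 and 19 after RA, or 1.89, 3.35 and 1.99 CPM against 1.61, 0.951 and 1.3 CPM. Every RA library lay below every DMSO library, as for 6.87% of all genes tested, with DMSO 1 (1.89 CPM) and RA 1 (1.61 CPM) the closest pair. The mean went from 2.41 ± 0.814 to 1.29 ± 0.331 CPM (SD, n = 3), a ratio of 0.534 (95% interval 0.299 to 0.951) with a log2 fold change of -0.91 (SE 0.35, edgeR adjusted p = 0.795). Within the sets the log2 values were -1.35 and -0.54, and with the set as a covariate -1.03 (edgeR adjusted p = 0.208). Without DMSO 2, the library in which 6 of the 12 mesenchymal markers were highest, the log2 fold change was -0.57 (edgeR adjusted p = 0.529). The part of stromal cells in the Igfbp2 values was not tested.

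The promoters of the pair of binding protein genes whose groups did not overlap are shown, as the 250 bases before the RefSeq transcription start in GRCm38.p6, 5′ to 3′ on the strand of the gene. The Igfbp3 window is chr11:7213924-7214173 on the minus strand and the Igfbp2 window, the upstream of 2 annotated starts, is chr1:72824230-72824479 on the plus strand. Capitals mark TATATA in Igfbp3 and GGGCGG, the core of the GC box bound by SP1, in Igfbp2.
Igfbp3: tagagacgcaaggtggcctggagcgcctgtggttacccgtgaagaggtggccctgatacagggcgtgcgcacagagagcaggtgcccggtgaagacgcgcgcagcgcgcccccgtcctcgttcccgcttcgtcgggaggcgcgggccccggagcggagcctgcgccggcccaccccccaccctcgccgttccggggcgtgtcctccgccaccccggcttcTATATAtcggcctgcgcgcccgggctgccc
Igfbp2: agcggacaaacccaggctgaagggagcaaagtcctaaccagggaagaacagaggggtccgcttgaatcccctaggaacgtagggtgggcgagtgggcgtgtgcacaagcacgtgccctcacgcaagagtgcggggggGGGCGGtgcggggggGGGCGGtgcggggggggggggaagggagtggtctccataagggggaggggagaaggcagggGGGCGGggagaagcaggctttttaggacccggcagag
These windows had a GC content of 73.2% for Igfbp3 and 67.2% for Igfbp2. Motifs were searched on both strands of the 250 bases before each start, for 14 starts of the 10 members and 32851 mouse promoters. The Igfbp3 window held TATATA once on the strand of the gene, a motif looked for after the sequence had been read and present in 5.25% of promoters, and no GGGCGG. The TATA box letters TATAAA were found in the windows of Igfbp4 and Igfbp6 and in 12.4% of promoters. The Igfbp2 window held GGGCGG at 3 places, where 32.7% of promoters had at least 1, and the window of the second Igfbp2 start held none. GGGCGG was also found in the windows of Igfbp7, Igf2r, Igf1r and 2 of 4 Igf2 starts. AGGTCA, the unit that RA receptors bind in pairs, was not found in either window but in those of Igf1, Igf1r, Igf2r and 1 of 4 Igf2 starts, as in 14% of promoters. Direct repeats of exactly AGGTCA with 5 or 2 bases between them, spacings of classical RA response elements, contain that unit. They were found in the windows of none of the 14 starts and in 0.00913% of promoters for each spacing. AGGTCA-like units with other letters, and sequence outside these windows, were not searched.

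Igfbp4 (chromosome 11, 99041244 to 99054392, plus strand) encodes an inhibitor of IGF action that PAPP-A cleaves. It stood at 489, 401 and 556 CPM in DMSO and at 467, 338 and 558 CPM after RA, with overlapping groups and a log2 fold change of -0.09 (95% interval -0.61 to 0.44, edgeR adjusted p = 0.928), which turned to 0.05 with the set as a covariate and was -0.01 within set 1 and 0.10 within set 2. Igfbp5 (chromosome 1, 72857932 to 72874884, minus strand), a binding protein stored in bone matrix, lies 5457 bases from Igfbp2 in a tail-to-tail pair. Its values of 197, 254 and 215 CPM in DMSO and 230, 241 and 230 CPM after RA varied little, and the log2 fold change was 0.07 (95% interval -0.23 to 0.38, edgeR adjusted p = 0.893), with -0.11 within set 1 and 0.16 within set 2. Igfbp2 and Igfbp5 thus lay side by side with non-overlapping groups for the former and RA libraries inside the DMSO range for the latter.

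Igfbp7 (chromosome 5, 77349240 to 77408041, minus strand), a low-affinity IGF binder of the extracellular matrix, stood at 147, 273 and 139 CPM in DMSO and at 241, 166 and 142 CPM after RA. Set 1 was higher than set 2 by a factor of 1.58 in the mean, and the log2 fold change of -0.03 (95% interval -0.79 to 0.73, edgeR adjusted p = 0.985) was positive, at 0.01, with scaling by library total. Within the sets it was -0.45 and -0.01, and without DMSO 2 it was 0.37 (edgeR adjusted p = 0.539). Exons of Igfbp7 overlap those of Polr2b on the other strand, which had 882 to 1417 counts, so reads in the shared stretch cannot be assigned with certainty. Igfbp6 (chromosome 15, 102144362 to 102149511, plus strand), a binding protein that prefers IGF-II, had 0, 3 and 3 counts in DMSO and 4, 3 and 5 after RA. These 6 counts against 12 lay at or near the floor of 3 in each library, and no difference was detectable at this depth.

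Levels of different genes were set side by side as CPM per kilobase of merged exons. In DMSO the order of the means was Igfbp7 (154), Igfbp4 (109), Igfbp5 (37.0), Igf2r (28.1), Igf1 (16.3), Igf2 (2.56), Igf1r (2.24), Igfbp2 (1.31), Igfbp3 (0.785) and Igfbp6 (0.110). The neighbours Igfbp7 and Igfbp4 did not keep their order in every library (Igfbp7 was higher in 4 of 6), nor did Igf2r and Igf1 (5 of 6) or Igf2 and Igf1r (3 of 6). Igfbp3 was below Igfbp2 in 3 of 3 DMSO libraries and above it, and above Igf2 and Igf1r, in 3 of 3 RA libraries, where its mean was 3.34 per kilobase. Igfbp7 and Igfbp4 stood at the 98.1 and 97.2 percentile of genes tested by this measure and Igfbp3 at the 31.4, so that the member that differed most was a low-abundance transcript.

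Binding protein mRNA was therefore made up almost wholly of 3 genes in both groups. Of the summed CPM per kilobase of the 6 Igfbp genes, Igfbp7 took 41.4% to 62.3% in DMSO and 41.1% to 57.2% after RA, Igfbp4 took 25.1% to 45.2% and 29.7% to 44.2%, and Igfbp5 took 11.6% to 12.9% and 11% to 15.6%. The share of Igfbp3 was 0.193%, 0.417% and 0.118% in DMSO and 1.12%, 1.35% and 0.922% after RA. That of Igfbp2 was 0.384%, 0.500% and 0.387% in DMSO and 0.251%, 0.20% and 0.245% after RA. For both, the groups did not overlap, and the exact two-sided permutation test gave p = 0.10 (0.30 after Benjamini-Hochberg adjustment over the 6 shares), which is the smallest p that 3 against 3 libraries allow. The sum itself was 267, 362 and 279 CPM per kilobase in DMSO and 348, 258 and 286 after RA, so the difference in Igfbp3 was small beside the spread of the sum.

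**Figure D3:**
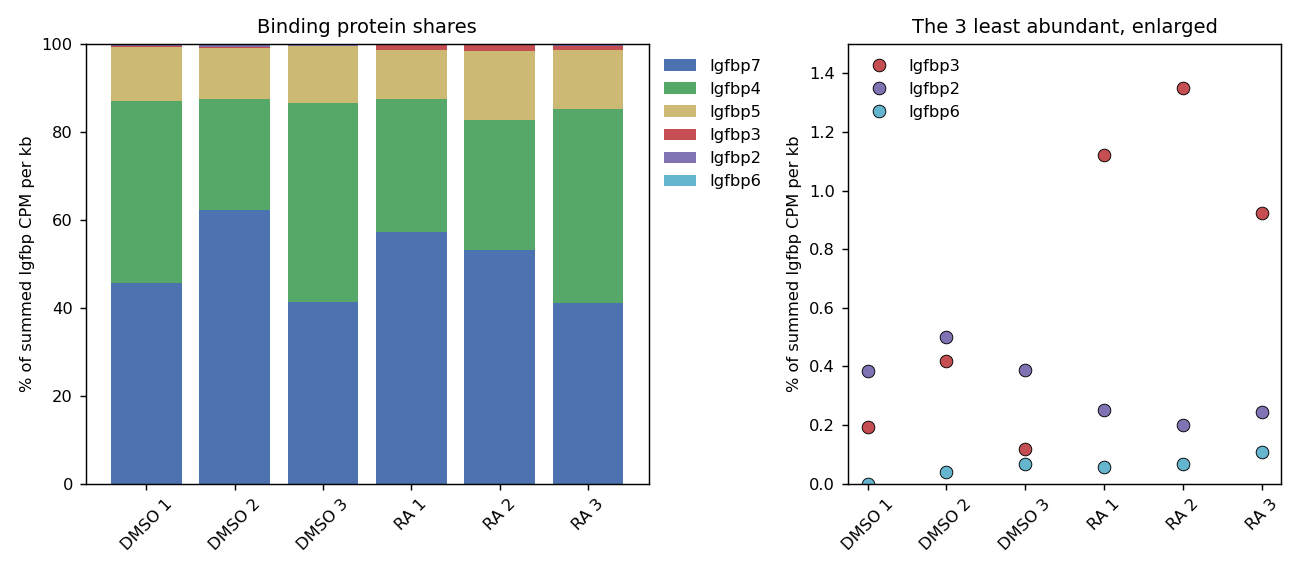
Share of each Igfbp gene in the summed CPM per kilobase of the 6 genes (percent, vertical axes) in each library, as stacked bars (left) and as points for the 3 least abundant genes on an enlarged axis (right). Igfbp3 lies at 0.118% to 0.417% in DMSO and 0.922% to 1.35% after RA, while Igfbp7, Igfbp4 and Igfbp5 fill the bars in both groups.

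The ratio of ligand mRNA (Igf1 and Igf2) to binding protein mRNA asked whether the balance of the axis moved. As CPM per kilobase the ligands came to 8.51%, 1.78% and 9.89% of the 6 binding proteins in DMSO and to 2.76%, 4.89% and 10.4% after RA. Set 2 had higher ratios than set 1 in both groups. The log2 ratio was -4.23 ± 1.37 in DMSO and -4.27 ± 0.96 after RA (SD, n = 3, difference -0.03, exact permutation p = 1). Within the sets RA was above DMSO by 1.04 and 0.18 on the log2 scale. The pooled difference was far smaller than the spread between libraries and depended on which of them entered, at -0.82 without DMSO 2, -0.53 without RA 3 and 0.01 to 0.42 without any of the other 4.

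Other genes of the IGF axis came from a list of 59, of which 57 were in the tables and 49 were tested. By edgeR's quasi-likelihood test, DESeq2 and edgeR's likelihood ratio test 0 of the 49 were called. Log2 fold changes were positive for 19 and negative for 30 (25 and 24 with scaling by library total), with a median of -0.04 beside -0.02 over all genes. At an unadjusted p under 0.05 there were 2, Htra1 higher and Stat5a lower, where all genes gave 2.89% higher and 2.36% lower. Among the 49, groups did not overlap for Htra1 (higher) and for Stat5a, Pik3r2, Akt1, Akt2 and Tsc2 (lower), the last 4 downstream kinases, kinase subunits or regulators with log2 fold changes between -0.30 and -0.14, where 12.6% of all genes did not overlap. Of the untested list genes, Pappa2, a protease related to PAPP-A, had 0, 0 and 2 counts in DMSO and 8, 4 and 5 after RA, near the floor. By role, the medians were 0.02 for 5 tested binding, carrier and protease genes, -0.05 for 10 receptors and adaptors, -0.01 for 5 regulators of IGF mRNA, -0.19 for 5 genes of the growth hormone arm and -0.05 for 24 downstream genes.

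Htra1 encodes a secreted serine protease that cleaves IGF binding proteins. It stood at 11.8, 21.1 and 14.2 CPM in DMSO and at 36.6, 29.8 and 23.8 CPM after RA, with every RA library higher. The mean went from 15.7 ± 4.83 to 30.1 ± 6.39 CPM (SD, n = 3), with a log2 fold change of 0.93 (SE 0.27, edgeR adjusted p = 0.66). Within the sets it was 0.64 and 0.87, and with the set as a covariate 0.76 (SE 0.14, edgeR adjusted p = 0.0479). Pappa, whose product cuts Igfbp4 and Igfbp5 proteins, stood at 82.6, 169 and 105 CPM in DMSO and at 108, 89.4 and 53.7 CPM after RA. Its groups overlapped (log2 fold change -0.51, edgeR adjusted p = 0.795), while within the sets RA was lower by log2 values of -0.78 and -0.79, and with the set as a covariate it was -0.79 (SE 0.12, edgeR adjusted p = 0.0269). Pappa, like Igf1r, Col1a1, Col1a2 and Prrx1 but unlike the other 9 mesenchymal markers, was highest in DMSO 2 and lowest in RA 3, and the part of stromal cells in its values was not tested. Htra1 and Pappa, 1 higher and 1 lower, were the 2 of 49 list genes called in that fit, where 0.744% of all genes were called as higher and 0.795% as lower. Stat5a, a transcription factor that acts downstream of the growth hormone receptor, stood at 30.7, 32.1 and 30.7 CPM in DMSO and at 27.7, 24.7 and 22.7 CPM after RA (log2 fold change -0.32, SE 0.13, edgeR adjusted p = 0.795, and -0.29 and -0.43 within the sets).

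**Figure D4:**
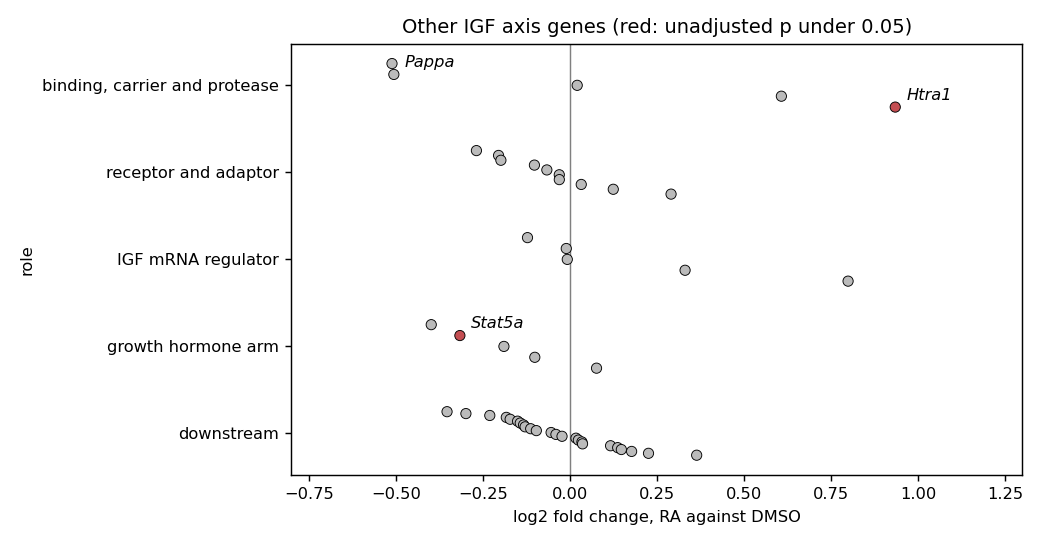
Log2 fold change of RA against DMSO (horizontal axis, edgeR) of the 49 tested IGF axis genes by role (vertical axis), with red points for an unadjusted p under 0.05. Points run from -0.51 to 0.93 with a median of -0.04, and Htra1 lies farthest to the right.

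The 3 members with the widest range over the 6 libraries were Igfbp3 (3.42 on the log2 scale), Igf1 (2.59) and Igfbp2 (1.69), and each had its own profile. The genes with the nearest profiles were found by the root mean square distance between mean-centred log2 CPM over the 6 libraries, given as a description without a test. For Igfbp3 they were Kbtbd11 (0.18), Hs3st1 (0.31), Bdnf (0.32), Lgr6 (0.33) and Pcdh10 (0.35), all at 0.344 to 5.32 CPM in DMSO and 3.75 to 21.7 CPM after RA. For Igf1 they were Selenop (0.08), Pld4 (0.10), Sv2a (0.12), Ly86 (0.12) and Arhgap19 (0.12), lowest in DMSO 2 and highest in RA 3 like Igf1 itself. For Igfbp2 they were Oaf (0.05), Mxra7 (0.08), Col18a1 (0.09), Cdc42ep1 (0.10) and Tnn (0.10), which were highest in DMSO 2 and lowest in RA 2. Igf1 and its neighbours were higher in every library of set 2 than in any of set 1, and within each set Igf1, Igfbp3 and the neighbours of both were higher after RA.

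**Figure D5:**
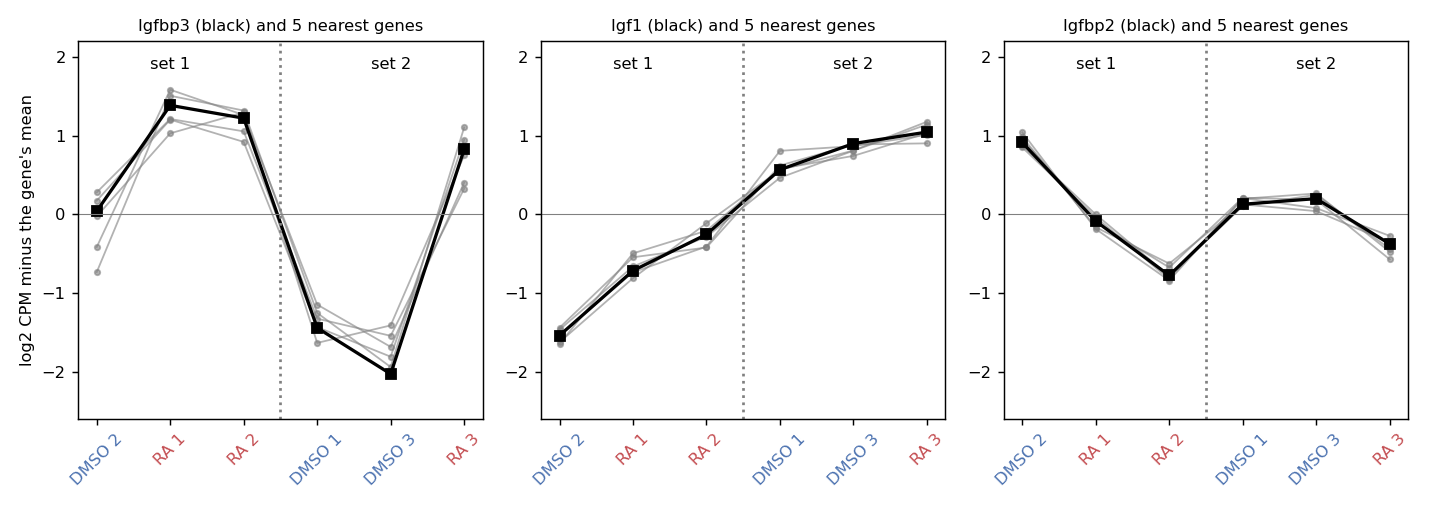
Log2 CPM minus the mean of the gene over the 6 libraries (vertical axis) for Igfbp3, Igf1 and Igfbp2 (black) and the 5 genes with the nearest profiles to each (grey), with libraries along the horizontal axis ordered by set and a dotted line between the sets. Igfbp3 runs from -2.03 in DMSO 3 to 1.39 in RA 1, and Igf1 from -1.54 in DMSO 2 to 1.05 in RA 3.

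Markers of other cell types that the cultures could hold were read beside these results. Endothelial markers (6 listed, 3 tested) summed to 7.02 to 16.7 CPM in DMSO and 10.1 to 17.3 CPM after RA, and osteoblast markers (5 listed, 4 tested) to 62.6 to 86.6 and 45.2 to 80.0 CPM. Adipocyte markers (6 listed, 4 tested) summed to 1240 to 1790 and 1470 to 1680 CPM, but the defining markers Adipoq (at most 0.546 CPM) and Plin1 (at most 0.070 CPM) were at or near 0. In each of these lists, as in the macrophage and mesenchymal lists, the ranges of the summed levels overlapped between the groups. Single markers without overlap were Lepr and Cxcl12 (higher) and Ly6a (lower) of the 10 tested mesenchymal markers, Itgam (higher) of the 14 macrophage markers, and Runx2 and Ibsp (lower) of the 4 tested osteoblast markers, in all 6 of the 35 tested markers or 17.1% beside 12.6% of all genes tested. Among them Lepr, a receptor that marks stromal cells of adult marrow, stood at 0.490, 0.479 and 0.481 CPM in DMSO and at 2.5, 3.04 and 9.48 CPM after RA (edgeR adjusted p = 0.292), and Ly6a at 34.1 to 39.5 and 17.9 to 20.3 CPM (edgeR adjusted p = 0.172). Their part in the values of the IGF genes was not tested.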

How the data were processed

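RNA of 3 DMSO-treated and 3 RA-treated BMSC cultures was measured by RNA sequencing. The authors deposited raw counts of reads per gene, not normalized, in a table per library; the submitters' processing notes name Bowtie2 2.2.3 and mm10, while the counting program, annotation and strand setting are not given in the sources used here. Counts were analysed in R 4.3.3 with edgeR 4.0.16 (TMM scaling, filterByExpr, quasi-likelihood F test over all 6 libraries without covariates, Benjamini-Hochberg adjustment over 13842 genes). Genes were called at an adjusted p under 0.05 with at least 1.5-fold change; the study's text names no threshold. DESeq2 1.42.0, the likelihood ratio test, other scalings and filters, left-out libraries, the replicate block and the library set as a covariate were alternatives. The test was tried on simulated data. Log2 CPM used a prior count of 2, and 24 gene names turned into dates were restored from identifiers. Coordinates and exon lengths came from GENCODE release M21 (GRCm38, the mm10 build), and promoter sequences from RefSeq, matched by symbol for 10 of 10 members. Totals of 14737636 to 18511905 counts set the precision; floors cover counting error only, because PCR copies of a molecule are not separate observations.

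All 10 members were named, with list genes that were called or had an unadjusted p under 0.05, and the 5 nearest genes to the 3 widest-ranging members. Pik3r2, Akt1, Akt2, Tsc2, Pappa2, Mrc1, Lyz2, Fcgr1, Airn, the overlapping genes and the single markers Col1a1, Col1a2, Prrx1, Pdgfrb, Lepr, Cxcl12, Ly6a, Itgam, Runx2 and Ibsp were named after their values were seen. The members, lists and library sets were chosen with earlier results of these data known. Igfbp1 and Lin28a were not analysed here.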

Additional observations from a re-analysis of the deposited data

How the results depend on the processing

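Member fold changes moved little with scaling and filters and more with the library set and with which libraries entered. The count of called genes, 6, became 136 with DESeq2, 134 with the likelihood ratio test, 20 without a filter, 213 with the library set as a covariate and 0 to 6 when 1 library was left out, namely 0 without DMSO 1, 2 without DMSO 2, 1 without DMSO 3, RA 1 or RA 2, and 6 without RA 3. Called members, 0, became 1 with DESeq2, with the likelihood ratio test and with the set covariate (Igfbp3), and stayed at 0 when 1 library was left out. In fits added after seeing the data, with the set covariate and 1 library left out, called members were 0 to 2, namely 1 without DMSO 2 or RA 1 and 2 without RA 2 (Igfbp3 and Igf1r). Without DMSO 2 or RA 3, these fits compare RA and DMSO within 1 set only. Called list genes went from 0 to 2 with the set covariate. Igf1 (-0.07) was positive at 0.052 with the replicate block, 0.68 with the set covariate, and 0.08, 0.36, 0.26 and 0.12 without DMSO 1, DMSO 3, RA 1 or RA 2 (range -0.77 to 0.36). Igf2r turned to -0.036 with the set covariate and to -0.038 without DMSO 1 (range -0.038 to 0.22), and Igfbp5 to -0.0072 without DMSO 1 (highest 0.19). Igfbp4 turned to 0.050 with the set covariate and to 0.029 and 0.090 without DMSO 3 or RA 2 (lowest -0.26). Igfbp7 turned to 0.010 with library totals, to 0.0058 with the replicate block, and to 0.37, 0.038 and 0.12 without DMSO 2, RA 2 or RA 3 (lowest -0.26). Left-out libraries gave 1.71 to 2.99 for Igfbp3, -0.58 to -0.07 for Igf1r, -0.76 to -0.43 for Igf2 and -1.08 to -0.57 for Igfbp2. The Igfbp2 share difference, -0.192 percentage points, was -0.256 with longest transcripts and -0.275 and -0.140 within the sets. That of Igfbp3, 0.889, was 1.08 with longest transcripts. That of Igfbp6, 0.0416, was 0.0223 within set 1, 0.0740 within set 2 and 0.0239 to 0.0572 with 1 library left out. The cause of these moves was not tested. Deviations of same-numbered libraries had correlations of -0.51, 0.343 and 0.572 across genes. DMSO 1 and RA 1 lie in different library sets, while the other same-numbered libraries share a set. These correlations therefore cannot show whether the numbers pair the samples. With the replicate block 4 genes and 0 members were called (Igfbp3 2.30, edgeR adjusted p = 0.352). The exact permutation p of the share differences of Igfbp2 and Igfbp3 was 0.25 with the pairing, the smallest that the paired test allows. The log2 ratio of ligands to binding proteins differed by -0.82 to 0.42 when 1 library was left out. Low counts limit Igfbp6, Igfbp2 and Igfbp3 in DMSO.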
